A study of Mus musculus with 23 samples.

Results

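At 7 days after caerulein pancreatitis, 8 of 35 genes of protein folding and quality control in the endoplasmic reticulum (ER) of the mouse pancreas head were lower than at baseline relative to the typical gene, beside 9.70% of all tested genes, and no gene of the chaperones that fold proteins there passed the test. Sel1l, Edem1, Edem2, Erlec1, Herpud1 and Syvn1, 6 of 11 measured genes of ER-associated degradation (ERAD), the removal of misfolded proteins, fell, and so did Atf6 and Ern1, which encode stress sensors of the ER membrane. The other 5 ERAD genes did not pass. In a wider list 4 of 22 further ERAD genes were lower and 1 was higher, beside 9.70% and 8.86% of all tested genes. At day 14 none of the 8 passed the test. Values below also give the share of all gene counts of a library, with no correction for the abundant enzyme transcripts. By that share these 8 genes together were not lower at day 7. With scaling to total counts only Syvn1 stayed below 0, without passing.

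The 35 genes described here were named as genes of ER chaperones, ERAD and the unfolded protein response. The rule used no measured value, but the genes were listed with earlier results of these data known. All 35 were among the 18512 gene symbols with counts, and all 35 were among the 12195 genes that had enough counts to be tested, the lowest count of any of them in any mouse being 36. They comprised 10 genes of the Hsp70 cycle around BiP, the ER Hsp90 gene Hsp90b1, 5 genes of glycoprotein folding, 2 genes of secreted stress proteins, 11 ERAD genes, 5 genes of sensors and transducers, and Wfs1, which encodes a glycoprotein of the ER membrane.

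The mice were C57BL/6 animals of both sexes, aged 6 to 8 weeks and weighing 20 to 25 g. Pancreatitis was induced with caerulein, a cholecystokinin analogue that overstimulates acinar cells, injected into the peritoneum every hour at 50 µg/kg, 8 times a day, on 2 days in a row. Total RNA of the pancreas head was sequenced after removal of ribosomal RNA from 8 baseline mice (4 female, 4 male) that were not injured, 8 mice at day 7 (4 female, 4 male) and 7 mice at day 14 (3 female, 4 male), with 1 library from each mouse. The baseline mice are described only as non-injured, without mention of vehicle injections, and both time points were compared with the same 8 baseline mice. The tissue was not sorted, so that fewer cells of a type and less RNA per cell cannot be told apart. The study left 1 further female of day 14 out because of poor mapping. By its mapping statistics, duplicate reads were more frequent at baseline than at day 7, and reads in 5′ untranslated regions were rarest at day 14. Such differences between libraries cannot be told apart from the time points.

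The pancreatic acinar cell makes more protein for secretion than almost any other cell, and its rough ER folds digestive enzymes with the help of BiP, Hsp90 and lectin chaperones. Chains that fail to fold are trimmed by mannosidase-like EDEM proteins, bound by lectins such as Erlec1 and Os9, and passed to the Sel1l and Syvn1 ubiquitin ligase complex, with Herpud1 as a scaffold and derlins as channel components, for degradation in the cytosol. When unfolded chains accumulate, the sensors Ire1 (Ern1), Perk (Eif2ak3) and Atf6 set off the unfolded protein response, in which Atf6 and spliced Xbp1 bind promoter elements of chaperone and ERAD genes.

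The elements that Atf6 and Xbp1 are known to bind are shown because the lower and the other members are compared by them below. RefSeq promoter windows of 300 bases on GRCm38.p6, from 250 bases before to 50 bases after the annotated start, were found for 28 of the 35 members (all but Atf6, Derl1, Erlec1, Hspa13, Hyou1, Manf and Sil1), and the letters were searched on both strands without mismatch. The ER stress response element (ERSE), spelled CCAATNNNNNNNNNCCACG, was present in 8 of 28 member windows (28.6%) and in 37 of 27025 genes with a window (0.137%). Written 5′ to 3′ on the strand of the element, with the fixed letters in capitals, the matches were the following.
Calr: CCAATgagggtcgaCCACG
Canx: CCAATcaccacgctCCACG
Creld2: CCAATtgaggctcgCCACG
Derl3: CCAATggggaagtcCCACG
Dnajc3: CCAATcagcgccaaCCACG
Hsp90b1 (upstream match): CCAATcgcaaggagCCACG
Hsp90b1 (downstream match): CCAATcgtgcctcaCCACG
Hspa5: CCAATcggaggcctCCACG
Syvn1: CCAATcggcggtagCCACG

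The second element, ERSE-II, spelled ATTGGNCCACG, was present in 2 of 28 member windows (7.14%) and in 12 of 27025 genes (0.0444%).
Dnajb11: ATTGGcCCACG
Herpud1: ATTGGgCCACG

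With the first transcribed base as 1, the Hspa5 match lay at -65 to -47 (chr2:34772025-34772043), the Syvn1 match at -44 to -26 (chr19:6046532-6046550) and the Herpud1 match at -52 to -42 (chr8:94386377-94386387), all on the plus strand and upstream of the start. The core of the unfolded protein response element, TGACGTGG, and the cyclic AMP response element, TGACGTCA, occurred in 0 of 28 member windows and in 0.714% and 2.03% of all genes with a window. A match is a description of the letters and does not show binding.

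Counts per library ranged from 7059890 to 9567446. Levels are given as CPM, the counts of a gene per 1000000 counts of a library, after scaling each library by the trimmed mean of M values (TMM), which sets libraries side by side so that most genes do not differ. This choice matters in the pancreas, because 16 secreted acinar enzymes took 57.6 ± 2.09% (SD, n = 8) of all counts at baseline, 49.1 ± 2.06% (n = 8) at day 7 and 53.6 ± 1.58% (n = 7) at day 14. The TMM factors were between 0.770 and 1.003 at baseline, 1.05 and 1.40 at day 7, and 0.934 and 1.03 at day 14. With scaling to total counts alone, the median of all genes was shifted up by 0.45 (log2) at day 7, and changes are therefore given relative to the typical gene.

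Differences were tested with edgeR's quasi-likelihood test on all 23 mice with sex as a covariate. A gene passed at a Benjamini-Hochberg adjusted p of at most 0.05 over the 12195 genes and counted as a DEG if its fold change was also at least 1.5. At day 7, 8 of 35 members were lower, beside 9.70% of all genes, and 0 were higher, beside 8.86%. None was a DEG, beside 5.13% of all genes. The median log2 fold change of the members was -0.031, with 22 below 0 and 13 above, and that of all genes was 0.022. At an unadjusted p under 0.05, 9 members were lower and 2 higher.

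The 11 ERAD genes divided into 6 that fell and 5 that did not pass. Sel1l encodes the adaptor that holds the ubiquitin ligase complex together and had the highest level per kilobase of exon of all members at baseline, 239 ± 23.95 CPM per kb (SD, n = 8), beside 180.2 ± 58.03 for Hspa5. Its level ranged from 1822 to 2421 CPM (median 2024) at baseline, 1150.5 to 1758 CPM (median 1588) on day 7 and 1403 to 1811 CPM (median 1737) on day 14. All 8 mice at day 7 lay below every baseline mouse, and the groups did not overlap. The log2 fold change at day 7 was -0.42 ± 0.088 (SE, adjusted p = 0.00152).

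Edem1, which extracts misfolded glycoproteins from the folding cycle, ranged from 845 to 1095 CPM (median 996) at baseline, 609 to 908 CPM (median 732) on day 7 and 744 to 897 CPM (median 867) on day 14. Of the mice at day 7, 5 of 8 were below every baseline mouse, and all 8 were below the baseline median. The log2 fold change was -0.39 ± 0.077 (adjusted p = 0.000712). Its relative Edem2 ranged from 293 to 373 CPM (median 352) at baseline, 248.6 to 329 CPM (median 284) on day 7 and 275 to 335 CPM (median 327) on day 14, with 4 of 8 mice at day 7 below every baseline mouse. The log2 fold change of Edem2 was -0.28 ± 0.067 (adjusted p = 0.00433). The third relative, Edem3, was at -0.089 ± 0.079 (adjusted p = 0.457) and did not pass.

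Erlec1 encodes a lectin that delivers trimmed glycoproteins to Sel1l. It had the smallest adjusted p of the members. Its level ranged from 41.7 to 52.5 CPM (median 45.8) at baseline, 30.6 to 41.4 CPM (median 35.7) on day 7 and 35.8 to 49.4 CPM (median 43.1) on day 14. As for Sel1l, all 8 mice at day 7 lay below every baseline mouse. These were the 2 of 35 members without overlap, beside 1.59% of all genes. The log2 fold change was -0.37 ± 0.069 (adjusted p = 0.000426). Os9, the other lectin of this step, was at -0.095 ± 0.088 (adjusted p = 0.48).

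Syvn1, the ubiquitin ligase also known as Hrd1, showed the lowest log2 fold change of the members, -0.54 ± 0.15 (adjusted p = 0.0172). Its level ranged from 36.2 to 61.9 CPM (median 40.2) at baseline, 23.02 to 42.6 CPM (median 29.9) on day 7 and 28.1 to 54.96 CPM (median 31.3) on day 14. Of the mice at day 7, 7 of 8 were below every baseline mouse, and the remaining male, mouse 14, was inside the baseline range. Herpud1, the scaffold of the complex, ranged from 239.9 to 377 CPM (median 318) at baseline, 161 to 287 CPM (median 244) on day 7 and 205 to 331 CPM (median 255) on day 14. All 8 mice at day 7 were below the baseline median and 4 were below every baseline mouse, with a log2 fold change of -0.39 ± 0.11 (adjusted p = 0.0166). Without mouse 14 at day 7 the log2 fold change of Syvn1 was -0.65, past the fold of a DEG. The Syvn1 model shares 1.87% of its exon bases with Mrpl49 on the opposite strand, and Herpud1 shares none.

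The derlins, which form the channel through which chains leave the ER, did not pass. Derl1 was at 0.039 ± 0.055, Derl2 at 0.24 ± 0.089 and Derl3 at 0.047 ± 0.093, with adjusted p of 0.659, 0.0625 and 0.766. Derl2 was thus on the other side of 0 from Sel1l and Syvn1, with a 95% interval of 0.055 to 0.42, and it passed as higher without baseline mouse 7 or without mouse 12 at day 7.

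Of the 5 sensors and transducers, Atf6 and Ern1 were lower at day 7. Atf6 encodes a transcription factor held in the ER membrane until stress releases it. Its level ranged from 152 to 183 CPM (median 168) at baseline, 113 to 155 CPM (median 140.4) on day 7 and 147 to 173 CPM (median 153) on day 14, with 7 of 8 mice at day 7 below every baseline mouse. The log2 fold change was -0.30 ± 0.067 (adjusted p = 0.00269). Its paralogue Atf6b, with 3.97 ± 0.369 CPM per kb at baseline beside 18.2 ± 1.26 for Atf6, was at 0.047 ± 0.097 (adjusted p = 0.777).

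Ern1 encodes Ire1, the kinase and endoribonuclease that splices Xbp1. It ranged from 48.9 to 60.9 CPM (median 54.6) at baseline, 37.7 to 65.9 CPM (median 44.8) on day 7 and 43.2 to 54.1 CPM (median 48.8) on day 14. At day 7, 7 of 8 mice were below every baseline mouse and the female mouse 12 was above them all. The log2 fold change was -0.25 ± 0.080 (adjusted p = 0.029), the largest adjusted p of the 8. Without baseline mouse 4 or 8, or without mouse 10 or 15 at day 7, Ern1 no longer passed, with adjusted p of up to 0.0685.

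Eif2ak3 encodes Perk, the kinase that slows translation under ER stress. It ranged from 159 to 201 CPM (median 183) at baseline, 133 to 218 CPM (median 148) on day 7 and 165 to 195 CPM (median 172) on day 14. Of the mice at day 7, 5 of 8 were below every baseline mouse and 1 was above them, and the groups overlapped. Its log2 fold change of -0.17 ± 0.081 did not pass (adjusted p = 0.139), and with TMM scaling it passed as lower without mouse 9 at day 7, where it was -0.24, and in males, as given below. Of its exon bases, 8.05% are shared with a gene on the opposite strand. Xbp1 ranged from 359.5 to 491 CPM (median 486) at baseline, 304 to 492 CPM (median 430.1) on day 7 and 401 to 472 CPM (median 438) on day 14, with a log2 fold change of -0.12 ± 0.080 (adjusted p = 0.323). Gene counts do not separate the spliced from the unspliced Xbp1 transcript. Wfs1, the member with the lowest level per kilobase (2.04 ± 0.321 CPM per kb at baseline), was at -0.16 ± 0.10 (adjusted p = 0.307).

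**Figure D1:**
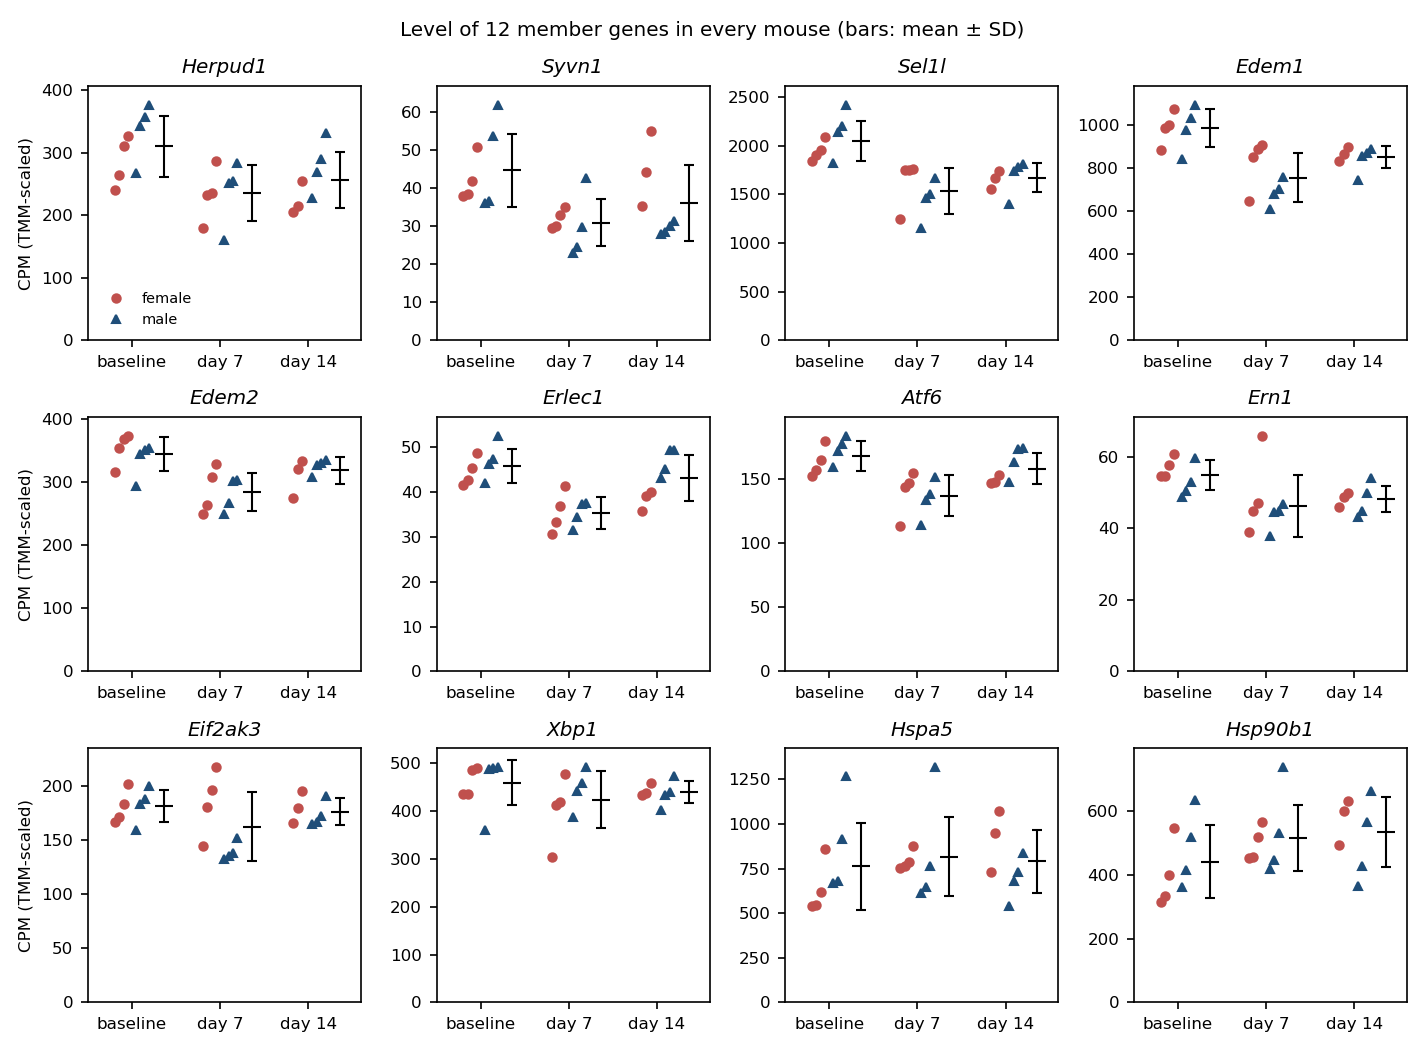
CPM after TMM scaling of 12 members in each of 23 mice, by time point, with females as circles, males as triangles, and black marks for the mean ± SD of a time point. For Sel1l and Erlec1 all 8 mice at day 7 sit below every baseline mouse, whereas the time points of Hspa5, Hsp90b1 and Xbp1 overlap.

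Of the 18 genes of protein folding, 0 passed at day 7 in either direction. Their log2 fold changes ranged from -0.11 to 0.33, with a median of 0.016, 9 below 0 and 9 above. Hspa5 encodes BiP, the ER Hsp70 and the usual readout of ER stress. It ranged from 539.7 to 1270.3 CPM (median 675) at baseline, 614 to 1319.5 CPM (median 766) on day 7 and 539 to 1072 CPM (median 732) on day 14. The groups overlapped nearly throughout, and the log2 fold change was 0.10 ± 0.19 (adjusted p = 0.739), with a 95% interval of -0.29 to 0.49. The values of these mice are compatible with any BiP change within that interval.

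Among the partners of BiP, the nucleotide exchange factors Hyou1 and Sil1 were at -0.0068 ± 0.15 and -0.11 ± 0.077. The J-domain co-chaperones Dnajb9, Dnajb11, Dnajc1, Dnajc3 and Dnajc10 lay between -0.11 and 0.12, and their partner Sdf2l1 was at 0.049 ± 0.12. Hspa13, an Hsp70 relative of the ER, was at 0.15 ± 0.16. The smallest adjusted p of the 10 genes of this cycle was 0.208.

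Among the folding genes, the largest fold changes above 0 belonged to Calr and Hsp90b1. Calr, the soluble lectin chaperone calreticulin, was at 0.33 ± 0.15 (adjusted p = 0.141), and all 8 mice at day 7 were above the baseline median. Hsp90b1, the ER Hsp90, was at 0.23 ± 0.16 (adjusted p = 0.322), with 15.7% of its exon bases shared with other genes. The membrane lectin Canx was at -0.0096 ± 0.069, with the narrow interval of -0.15 to 0.13. The glucosidase subunits Ganab and Prkcsh were at -0.014 ± 0.061 and -0.11 ± 0.062, and the folding sensor Uggt1 was at 0.075 ± 0.075. The secreted stress proteins Manf and Creld2 were at 0.20 ± 0.17 and -0.0091 ± 0.18, and neither passed.

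**Figure D2:**
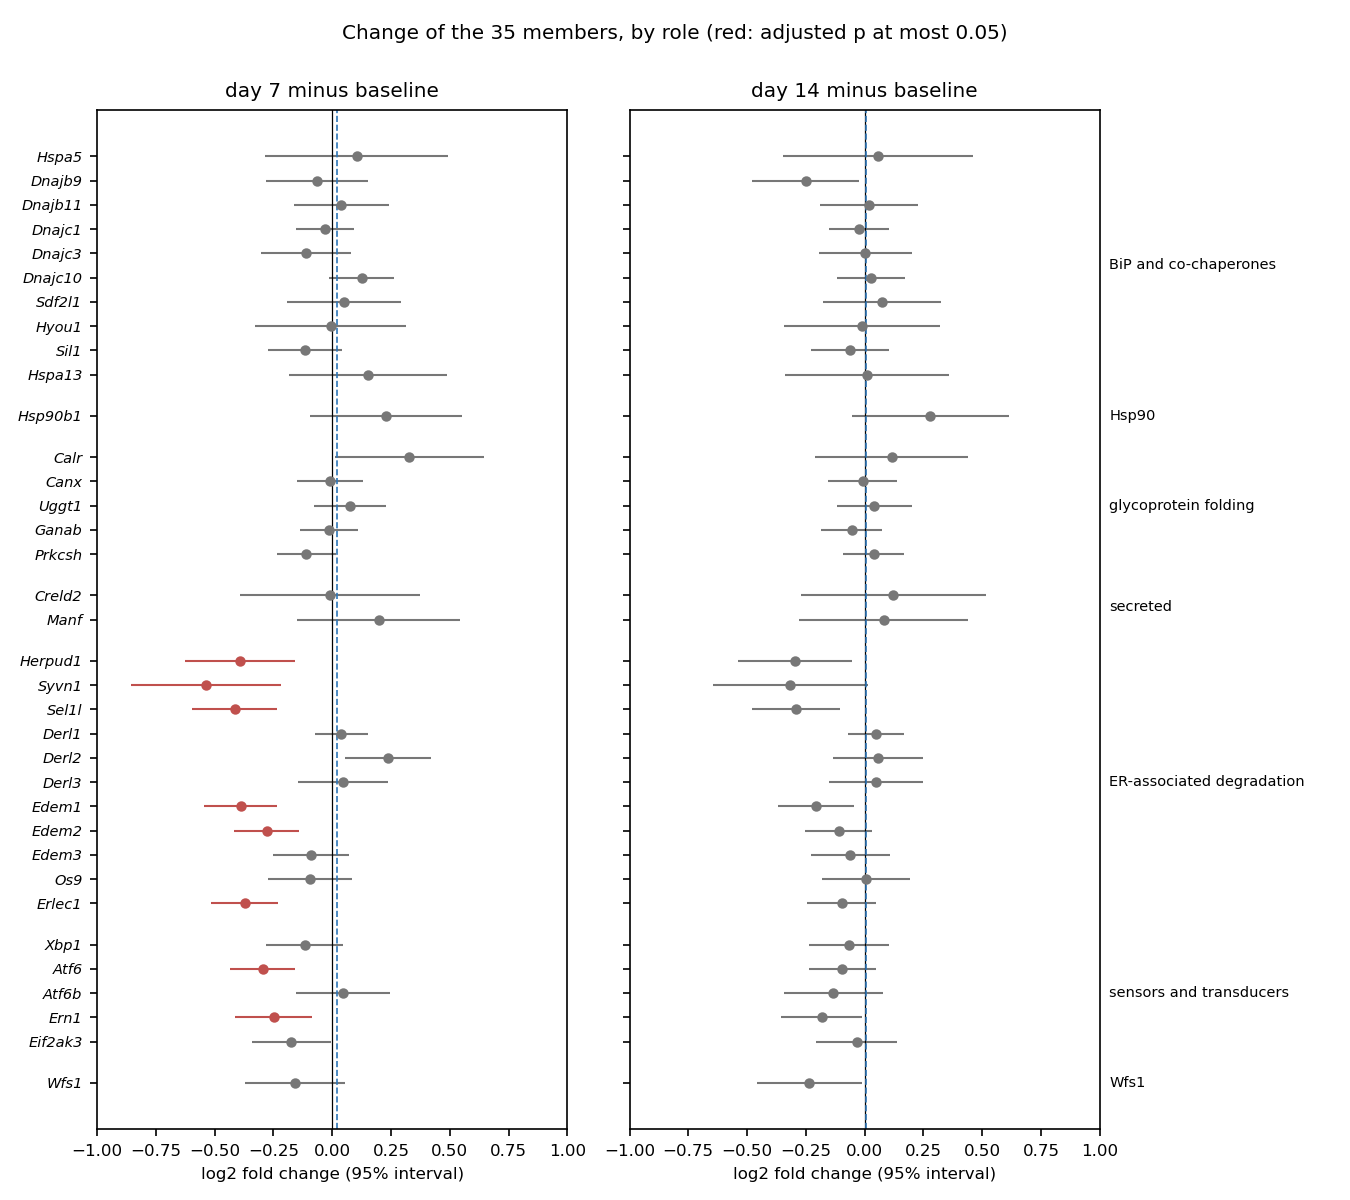
log2 fold change from baseline of the 35 members at day 7 (left) and day 14 (right), by role, with 95% intervals; the dashed line is the median of all genes and red marks an adjusted p of at most 0.05. The 8 red points are all left of 0, all at day 7, and all among ERAD genes and sensors.

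A ratio of counts within a library needs no scaling between libraries. Counts of the 11 ERAD genes per count of the 18 folding genes came to 1.24 ± 0.138 (SD, n = 8) at baseline, 0.929 ± 0.114 (n = 8) at day 7 and 1.03 ± 0.126 (n = 7) at day 14. At day 7, 7 of 8 mice were below every baseline mouse, and at day 14, 4 of 7 were. Counts of Sel1l per count of Hspa5 came to 2.84 ± 0.586, 1.94 ± 0.368 and 2.19 ± 0.385. The ratio was formed after the fold changes were known and was not tested. At baseline Sel1l (mean 2049 CPM) and Edem1 (988 CPM) made up most of the 4480 CPM of the 11 ERAD genes. The ERAD ratio therefore largely restates the calls of these 2 genes, and the ERAD genes that did not pass weigh little in it.

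The share of all counts gave another picture. The 35 members together took 0.773 ± 0.0606% of the counts at baseline, 0.961 ± 0.106% at day 7 and 0.848 ± 0.0891% at day 14. The 8 members that were lower after TMM scaling took 0.343 ± 0.0182%, 0.358 ± 0.0365% and 0.336 ± 0.0184%, so that their share was not lower at day 7. Per 1000 counts of the 16 acinar enzymes, the 35 members had 13.4 ± 1.17 counts at baseline and 19.6 ± 2.75 at day 7, with all 8 mice at day 7 above every baseline mouse. At day 14 the value was 15.9 ± 2.04. The enzymes took a smaller share of counts at day 7, so this ratio also rises for a gene whose own share is unchanged. How often other genes stood apart in this ratio was not counted.

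**Figure D3:**
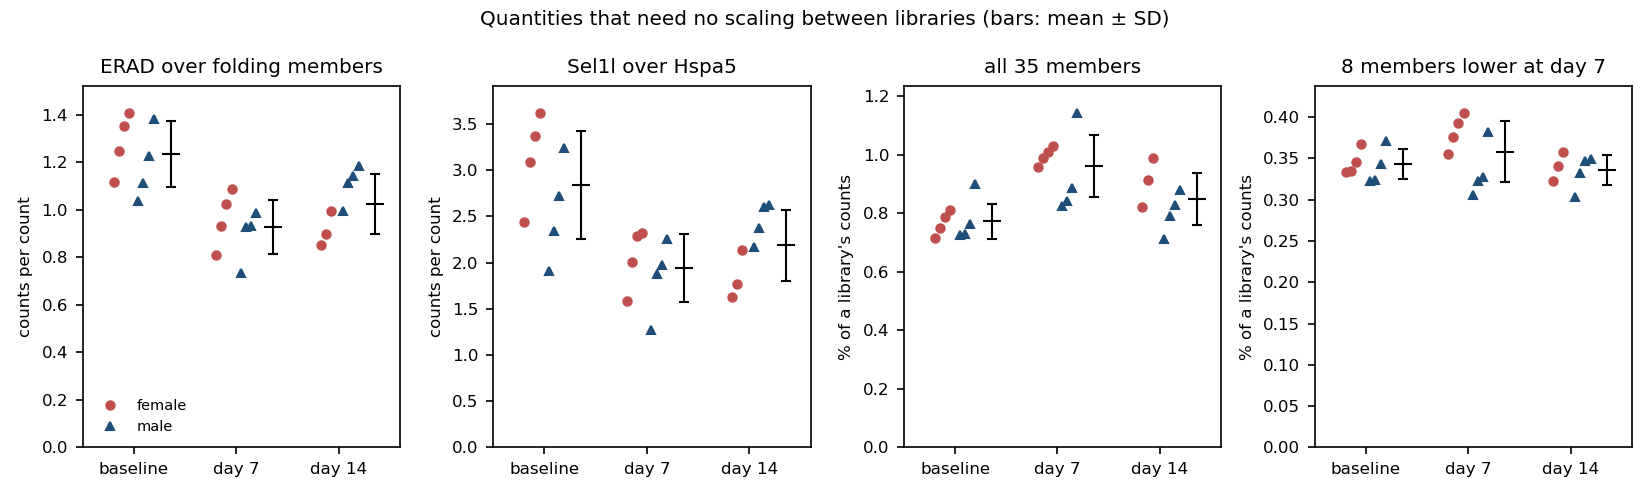
Counts of ERAD genes per count of folding genes, counts of Sel1l per count of Hspa5, and the percent of a library's counts taken by all 35 members and by the 8 members lower at day 7, in each mouse, with the mean ± SD of each time point. At day 7, 7 of 8 mice lie below every baseline mouse in the first panel, while the time points overlap in the last.

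Scaling to total counts without TMM turned the sign of 7 of the 8 calls: the log2 fold change became 0.033 for Sel1l, 0.060 for Edem1, 0.075 for Erlec1, 0.055 for Herpud1, 0.17 for Edem2, 0.15 for Atf6 and 0.19 for Ern1, and Syvn1 stayed at -0.085 without passing. Under that scaling 0 members were lower and 30 higher, beside 64 lower and 9272 higher of all 12195 genes. Relative to the median of all genes the 8 members stood from -0.56 (Syvn1) to -0.27 (Ern1) with TMM and from -0.56 to -0.28 with total counts. A change of scaling moves nearly all genes alike, so the distance to the median is kept by construction and the turned signs are that shared shift. Neither is a test of the 8 changes.

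**Figure D4:**
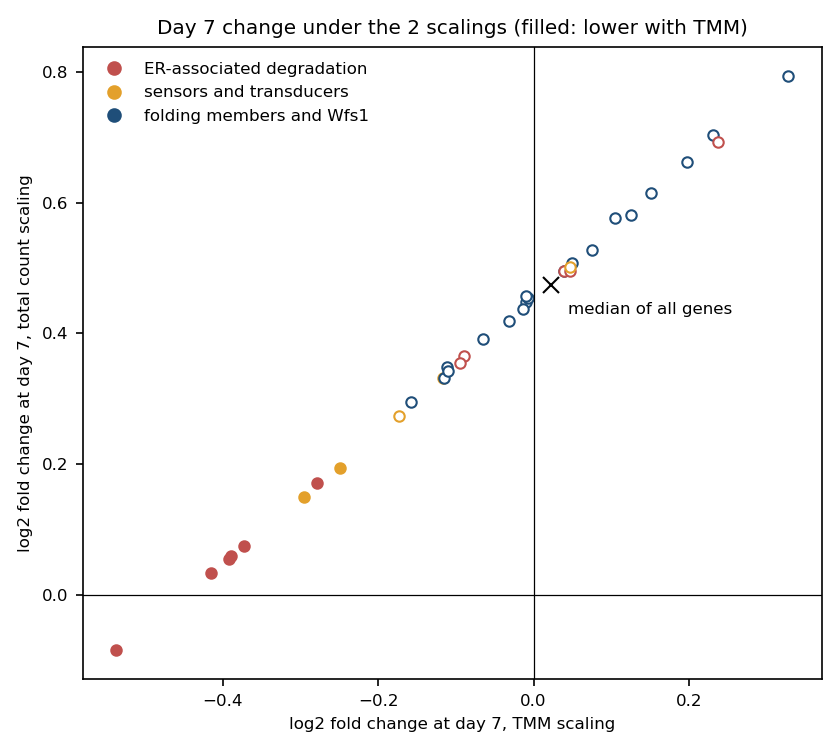
log2 fold change of each member at day 7 with TMM scaling (horizontal) and with scaling to total counts (vertical), coloured by role and filled if lower with TMM; the cross is the median of all 12195 genes. All 8 filled points lie below the cross, and only Syvn1 lies below 0 on the vertical axis.

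At day 14, 0 of 35 members were lower, beside 0.525% of all genes, and 0 were higher, beside 1.05%, while 0 were DEGs, beside 0.787%. At an unadjusted p under 0.05, 6 were lower and 0 higher. DESeq2 called Sel1l lower. The 8 genes that fell at day 7 all had a log2 fold change nearer to 0 at day 14. They were picked by their day 7 change, against the same baseline mice. Values nearer to 0 at another time point can therefore come from that choice alone, and they do not show a return. Sel1l was at -0.29 ± 0.092 (adjusted p = 0.113), Edem1 at -0.21 ± 0.079, Herpud1 at -0.29 ± 0.12 and Syvn1 at -0.32 ± 0.16, with adjusted p from 0.223 to 0.4 for the last 3. Erlec1 and Atf6 were at -0.097 ± 0.072 and -0.095 ± 0.070.

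Compared directly, day 14 was higher than day 7 for 1 of 35 members, beside 1.01% of all genes, and lower for 0, beside 0.279%. This member was Erlec1, at 0.28 ± 0.071 (adjusted p = 0.0476), and the call was lost in 17 of the 23 fits that each left out 1 mouse, all but those without baseline mouse 4, 5 or 8, day 7 mouse 9 or 11, or day 14 mouse 19. Atf6 was at 0.20 ± 0.070 (adjusted p = 0.153), Edem1 at 0.18 ± 0.079 and Edem2 at 0.17 ± 0.070. For Sel1l the difference between the time points was 0.12 ± 0.091 (adjusted p = 0.581), so that a return between day 7 and day 14 was not shown for it.

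No member differed between the sexes (0 of 35, beside 0.574% of all genes, with an unadjusted p under 0.05 for 3), and none showed a day 7 change that differed between the sexes (0 of 35, beside 0.00773% of 12933 genes, with an unadjusted p under 0.05 for 1). In a fit with 6 groups of sex and time, 6 members were lower at day 7 in males, beside 4.34% of all genes, and 1 in females, beside 2.98%. The 6 were Syvn1, Sel1l, Edem1, Atf6, Eif2ak3 and Erlec1. The day 7 log2 fold change was smaller in males than in females for 30 of 35 members and 7 of the 8 lower ones, beside 52.5% of all genes. For some of the 30 it was above 0 in both sexes, as for Calr at 0.14 in males and 0.53 in females. The members were measured in the same mice, so the 30 are not separate results. In fits of 1 sex alone the median of the members was -0.094 in males and 0.015 in females. For Edem1 the log2 fold change was -0.52 ± 0.11 in males (adjusted p = 0.00379) and -0.27 ± 0.11 in females (adjusted p = 0.168). Erlec1 passed in both, at -0.42 ± 0.095 and -0.33 ± 0.095. The gene with the unadjusted p under 0.05 for the difference was Eif2ak3, at -0.39 ± 0.10 in males, where it passed (adjusted p = 0.0197), and 0.029 ± 0.10 in females (adjusted p = 0.912), with an adjusted p of 0.682 for the difference. With 4 mice of each sex at a time point, the tests within a sex had fewer mice than the main comparison.

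Mice of the same time point differed in the measured level of their folding genes. The SD of log2 CPM between mice of a time point, pooled over the time points, was 0.365 for Hspa5, 0.353 for Creld2, 0.328 for Manf, 0.317 for Hyou1 and 0.317 for Hsp90b1. It was 0.096 for Derl1 and 0.103 for Prkcsh. The median was 0.184 over the 35 members and 0.223 over all tested genes, and 11 members were above the latter. Genes of low count widen the spread over all genes, and over the 7196 tested genes with a mean level at or above that of the lowest member the median was 0.171, below that of the members. At baseline, mouse 7 had the highest level of 19 members, including Hspa5 at 1270.3 CPM. At day 14, mouse 18 was highest for 21 members and mouse 21 lowest for 25, and at day 7 mouse 15 was lowest for 20. How often these mice were the extreme for genes other than the members was not counted. Without mouse 15, 7 members were lower at day 7, and without mouse 7, 8 were. The summed adipocyte markers differed between these mice too, at 104 CPM in mouse 21 and 82.7 CPM in mouse 15. They came to 14.9 CPM in mouse 18 and 27.2 CPM in mouse 7. Day 7 mouse 10, lowest for 9 members, had 203 CPM, but day 7 mouse 14, highest for 10, had 101 CPM. The part of other cell types in this spread was not tested.

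The genes that varied most like Hspa5 from mouse to mouse included several other chaperone genes. After the mean of each time point was removed, log2 CPM of Hspa5 over the 23 mice had a Pearson r of 0.95 with Manf, 0.91 with Calr, 0.89 with Hsp90b1 and 0.88 with Hyou1. The median r over the other 12194 tested genes was -0.015, and their 95th percentile was 0.49. Of the 20 genes most like Hspa5, 7 were members (Manf, Calr, Hsp90b1, Hyou1, Creld2, Hspa13 and Dnajc3).

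The other 13 included the disulfide isomerases Pdia3 (r = 0.94) and Pdia4 (r = 0.89), the ER calcium pump gene Atp2a2 (r = 0.91), the ERAD genes Selk and Ubxn4, the retrieval receptor gene Kdelr2 (r = 0.84) and the amino acid transporter gene Slc7a1. The remaining ones were Morf4l2, Eif4a1, Sept2, Rars, 6430548M08Rik and Osbp. Without baseline mouse 7 and day 7 mouse 14, the mice farthest from the median of Hspa5, r was 0.94 for Manf and 0.90 for Calr. Spearman's rho over all mice was 0.96 and 0.89. The points share each mouse's library and its scaling.

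The genes that were lower at day 7 varied in their likeness to Hspa5. Syvn1 had an r of 0.77 and Sel1l of 0.60, but Herpud1 was at 0.38, Edem1 at 0.36, Atf6 at 0.25, Edem2 at 0.12, Erlec1 at -0.032 and Ern1 at -0.036. The upper quartile of all genes was 0.20. A low r was not particular to the lower genes, as Eif2ak3 was at 0.019, Sil1 at 0.21 and Xbp1 at 0.23. Of the 34 other members, 22 had an r above the 95th percentile of all genes, and 2 of these were among the 8 lower ones. The 10 members with an ERSE or ERSE-II in the promoter window had a median r of 0.79, counted without Hspa5, and a median SD of 0.285. For the 18 with a window but neither element, the medians were 0.54 and 0.167. Of the 10 genes with an element, 2 were lower at day 7 (Syvn1 and Herpud1), and of the 18 without, 4 were (Sel1l, Edem1, Edem2 and Ern1). These are descriptions of 1 set of mice, with no test.

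**Figure D5:**
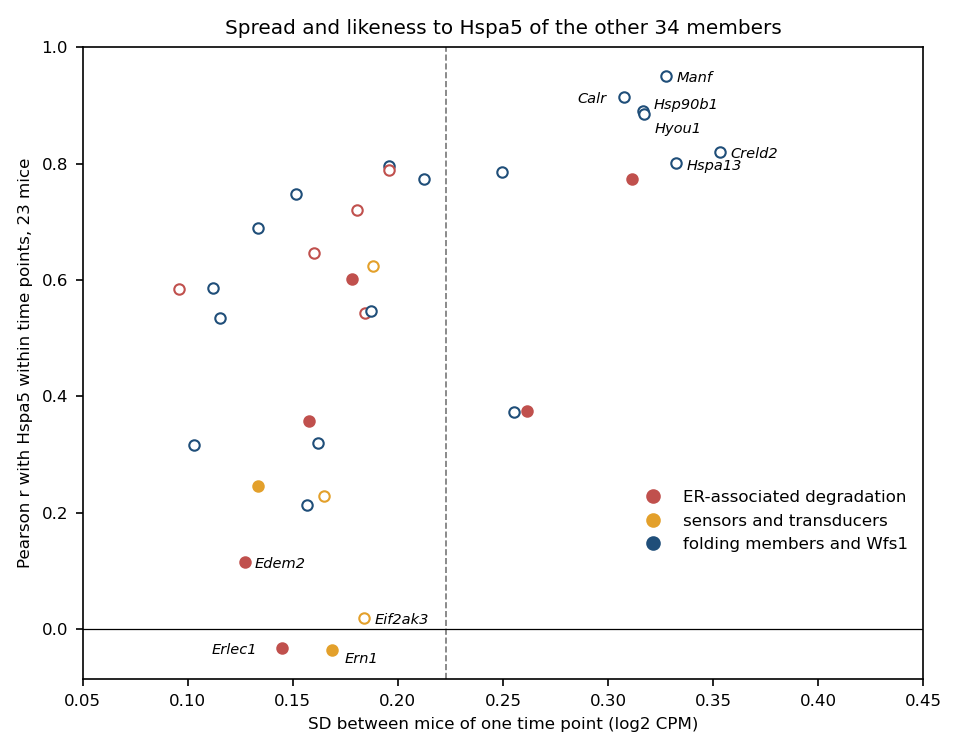
SD of log2 CPM between mice of a time point (horizontal, the dashed line being the median of all tested genes) and Pearson r with Hspa5 within time points over 23 mice (vertical) for the other 34 members, coloured by role and filled if lower at day 7. Manf, Calr, Hsp90b1 and Hyou1 lie at the upper right, and Erlec1, Ern1 and Edem2 near an r of 0.

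Other genes of the secretory pathway, from lists of named genes, included lower and higher ones at day 7. For every list from here on, the shares of all genes to set beside are 9.70% lower and 8.86% higher at day 7. At day 14 they are 0.525% and 1.05%. No list was tested as a set, and a count near these shares is not a trait of its list. As for the members, their changes are relative to the typical gene and moved up with the median of all genes under total count scaling. Of 22 other ERAD genes, 4 were lower and 1 higher, the lower ones including Aup1 (-0.28 ± 0.061, adjusted p = 0.00194), Nploc4 (-0.22 ± 0.063, adjusted p = 0.0119) and Rnf5 (-0.36 ± 0.11, adjusted p = 0.0286), and the higher one being the ubiquitin ligase Rnf139 (0.21 ± 0.067, adjusted p = 0.0245). The median of that list was -0.027. Of 16 disulfide isomerases and oxidases, 3 were lower and 1 higher. The lower ones were Qsox1 (-0.42 ± 0.075, adjusted p = 0.000243), Txndc11 (-0.44 ± 0.080, adjusted p = 0.000314) and Ero1lb (-0.32 ± 0.095, adjusted p = 0.019), and the higher one was the peroxiredoxin Prdx4 (0.25 ± 0.079, adjusted p = 0.027).

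Of 18 genes known as outputs of the Perk branch, 4 were lower and 1 higher, with a median of -0.19. Psat1, an enzyme of serine synthesis, was at -0.74 ± 0.13, adjusted p = 0.000376. Nupr1, a stress-induced nuclear protein, was at -0.62 ± 0.11, adjusted p = 0.000521, the transcription factor Atf5 at -0.55 ± 0.12, adjusted p = 0.00272 and the amino acid transporter subunit Slc3a2 at -0.26 ± 0.080, adjusted p = 0.0219. The higher one was the transcription factor Atf3, at 0.94 ± 0.33, adjusted p = 0.0481, the change farthest from 0 in the list. Ddit3, which encodes the stress factor Chop, was at 0.43 ± 0.20 and did not pass (adjusted p = 0.134). At day 14 no gene of the list passed.

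The 26 genes of the translocon and the oligosaccharyltransferase, which bring nascent chains into the ER and glycosylate them, had 6 higher and 1 lower, with a median of 0.11. Ssr2 was at 0.57 ± 0.12, adjusted p = 0.00172, Sec11a at 0.32 ± 0.068, adjusted p = 0.00161, Ostc at 0.37 ± 0.096, adjusted p = 0.00741 and Srp68 at -0.23 ± 0.067, adjusted p = 0.0178. Of 18 genes of ER exit and retrieval, 3 were lower and 0 higher, namely Sec24c (-0.23 ± 0.053, adjusted p = 0.00281), Sec31a (-0.21 ± 0.058, adjusted p = 0.0121) and Sec16a (-0.24 ± 0.077, adjusted p = 0.029), while Mcfd2 did not pass (-0.21 ± 0.080, adjusted p = 0.0619). Of 14 tested cytosolic and mitochondrial chaperones, 3 were higher and 1 lower. Hspe1 was at 0.43 ± 0.089, adjusted p = 0.00115, Hsp90aa1 at 0.32 ± 0.085, adjusted p = 0.00873, Cct3 at 0.34 ± 0.094, adjusted p = 0.0114 and Hsp90ab1 at -0.18 ± 0.059, adjusted p = 0.0308.

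Transcripts of abundant digestive enzymes, which are clients of these chaperones, moved as well. All 16 secreted acinar enzymes of the list fell at day 7 (median -0.69 on the log2 scale) and 6 at day 14 (median -0.28). As a share of all counts, 15 of 16 were lower at day 7, with a median of -0.24, and Pnliprp2 was at 0.081. Their share of all counts, given above, was below every baseline mouse in all 8 mice at day 7. Pancreatic lipase, Pnlip, was at -0.88 ± 0.082, adjusted p = 4.51e-08. The carboxypeptidase gene Cpa1 was at -0.87 ± 0.089, adjusted p = 1.83e-07, the trypsinogen gene Prss2 at -0.94 ± 0.10, adjusted p = 4.44e-07 and the ribonuclease gene Rnase1 at -0.83 ± 0.096, adjusted p = 9.29e-07. Secreted enzymes did not all move this way. Of 9 other trypsinogen genes, listed after their values were seen, 6 were higher and 2 lower at day 7. Gm2663 rose from 0.223 ± 0.259 CPM (SD, n = 8) at baseline to 198 ± 61.8 CPM (n = 8), and 1810009J06Rik from 1.05 ± 0.565 to 93.5 ± 34.2 CPM. Prss1 was at 2.21 ± 0.21 on the log2 scale, adjusted p = 5.11e-07, and Gm10334, Gm5771 and Prss3 were also higher. The more abundant Try4 and Try5 were at -0.45 ± 0.097 and -0.53 ± 0.14, with adjusted p of 0.00183 and 0.00992, but their shares of all counts were nearly level, at 2.47% for Try4 at both time points and at 0.927% and 0.888% for Try5. Trypsinogens are near-identical copies and, per the study, only fragments that mapped to 1 place were counted. Reads from sequence that the copies share may thus be lost, and these values are uncertain. The levels of the 16 listed enzymes identify the tissue as exocrine pancreas, the tissue given by the labels.

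Markers of other cell types moved with the time points. At day 7, 6 of 8 fibroblast markers, 7 of 8 macrophage markers and 7 of 10 islet markers were higher. The summed level of the fibroblast markers ranged from 321 to 634 CPM at baseline and from 599.9 to 1147 CPM at day 7, that of the macrophage markers from 43.1 to 129 CPM and from 79.1 to 172 CPM, and that of the islet markers from 136 to 577 CPM and from 423 to 1215 CPM. At day 14 the fibroblast markers ranged from 509 to 714 CPM, with 2 of 8 higher, the macrophage markers from 61.1 to 104 CPM and the islet markers from 450.0 to 895 CPM, with none higher in either. Lum, a fibroblast proteoglycan gene, was at 1.41 ± 0.16, adjusted p = 1.57e-06 at day 7.

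The plasma cell, another cell rich in ER, had 6 marker genes in the files, of which Jchain, Mzb1, Pou2af1, Cd79a and Tnfrsf17 were at 0 counts in 2 to 12 mice and Sdc1 in none. Their sum ranged from 14.1 to 53.9 CPM at baseline and from 14.7 to 63.1 CPM at day 7, and 0 of 4 tested passed. Of 6 endothelial markers 1 was lower (Kdr, -0.35 ± 0.092, adjusted p = 0.00874), of 7 duct markers 1 was higher (Krt7, 0.74 ± 0.26, adjusted p = 0.0428), and of 5 tested adipocyte markers none passed. For the endothelial, duct and adipocyte markers the sums at day 7 ranged from 62.8 to 118 CPM, from 79.7 to 129 CPM and from 12.04 to 203 CPM, and at baseline from 76.5 to 133 CPM, from 100.3 to 149 CPM and from 14.1 to 94.5 CPM. The part of these cell types in the member changes was not tested.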

How the data were processed

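RNA was sequenced from the head of the pancreas of 23 mice, with 1 library from each. Per the labels, reads were trimmed with Trim Galore and cutadapt, checked with FastQC and aligned to mm10 with STAR 2.5.2a, and the authors deposited raw read counts per gene symbol from featureCounts; the gene annotation and the strand setting are not given in the sources used here. Of the pairs of mice, 0 of 253 had identical counts.

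Counts were analysed with edgeR 4.0.16 in R 4.3.3. Genes were kept by filterByExpr within time points (12195 of 18512), libraries were scaled by TMM, dispersions were estimated robustly, and time point and sex were fitted with glmQLFit and tested with glmQLFTest, with Benjamini-Hochberg adjustment. The sex by day 7 difference was fitted on 6 groups (12933 genes). SE were taken as the log2 fold change over the root of F. log2 CPM had a prior count of 2. A count of 3 corresponded to 0.224 to 0.522 CPM, depending on the library. PCR copies were not marked, so the counts can carry error from PCR beside counting error, which the floors do not include. Exon lengths and overlaps came from GENCODE vM21. DESeq2 1.42.0, other scalings, filters, samples and the omission of each mouse were the alternatives. Scripts were tested on simulated data.

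The members and the lists were chosen with earlier results of these data known. Values by time point were given for members with an adjusted p of at most 0.05 at day 7 or 14 and for Hspa5, Xbp1, Atf6, Ern1 and Eif2ak3, and at most 4 genes of each other list were named, those with the smallest p at day 7. Atf3, Ddit3 and the trypsinogens other than Prss2 were named after their values were seen. The 20 genes most like Hspa5 were named by Pearson r. Separate mice are replicates. The part of counts that a nearby or overlapping gene contributed was not analysed here.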

Additional observations from a re-analysis of the deposited data

Results flagged for a closer look

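In 11 of 105 combinations of a member and a time point, 1 mouse stood apart from the others by Dixon's gap test, where chance flags about 1 in 20. Mouse 14 at day 7, a male, was highest for chaperone genes and a secreted stress protein: Hspa5 was at 1319.5 CPM in mouse 14 at day 7, beside 879 in the nearest mouse. Hsp90b1 was at 738 CPM in mouse 14 at day 7, beside 566 in the nearest mouse. Creld2 was at 111 CPM in mouse 14 at day 7, beside 71.1 in the nearest mouse. Mouse 7 at baseline, also a male and highest there for 19 members, chaperone genes included, stood apart for 2 derlins and Atf6b. Derl2 was at 33.2 CPM in mouse 7 at baseline, beside 26.9 in the nearest mouse. Derl3 was at 89.6 CPM in mouse 7 at baseline, beside 68.2 in the nearest mouse. Atf6b was at 13.2 CPM in mouse 7 at baseline, beside 11.2 in the nearest mouse.

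The other 5 concerned single mice. Ern1 was at 65.9 CPM in mouse 12 at day 7, beside 47.04 in the nearest mouse. Wfs1 was at 9.10 CPM in mouse 9 at day 7, beside 7.35 in the nearest mouse. Dnajb9 was at 49.6 CPM in mouse 11 at day 7, beside 38.4 in the nearest mouse. On the low side, Edem1 was at 744 CPM in mouse 21 at day 14, beside 836 in the nearest mouse, and Xbp1 was at 359.5 CPM in mouse 5 at baseline, beside 435 in the nearest mouse. Without mouse 14 at day 7 the log2 fold change of Hspa5 was -0.042, and without mouse 12 at day 7 that of Ern1 was -0.34.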

How the results depend on the processing

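The count of 8 lower members at day 7 stayed at 7 to 9 with DESeq2 (8), with DESeq2 size factors (8), without the 20 most abundant genes in the totals (7), without the low-count filter (7), with at least 10 counts in every mouse (8), with only the groups compared (8), without the sex covariate (8) and without any single mouse (7 to 9). The same 8 genes were called with DESeq2 and with DESeq2 size factors. With total count scaling, 0 members were lower and 30 higher at day 7, beside 64 and 9272 of 12195 genes, and 5 were DEGs. Under it 14 members were higher at day 14, beside 3015 of 12195 genes. Further, 16 were lower and 0 higher at day 14 than at day 7, and 1 differed between the sexes. The share of all genes was not counted for DEGs under the alternatives. Nor was it counted for day 14 against day 7 or for sex. Total count scaling moves nearly all genes alike, so these counts are not results about the members. Members higher at day 7 numbered 2 without the 20 most abundant genes (Dnajc10 and Derl2), beside 1885 of 12195 genes. They numbered 1 with at least 10 counts in every mouse, beside 1016 of 9834 genes, and 1 in females only, beside 196 of 12338. Without a single mouse they numbered 0 to 1. Members lower at day 7 numbered 0 in females only, beside 335 of 12338 genes. In males only they numbered 5, beside 503 of 12136 genes, with 1 DEG. Each of these fits had fewer mice. DEGs at day 7 numbered 0 to 1 without a single mouse. Members lower at day 14 numbered 1 with DESeq2, beside 103 of 18269 genes, and 1 with only the groups compared, beside 134 of 11469. It was Sel1l in both. Erlec1, higher at day 14 than at day 7, was no longer called (0 members) under either total count scaling, without the low-count filter, with only the groups compared and in females only, and 0 to 1 members were called without a single mouse. The count was 0 without a single mouse for members lower or higher at day 14, DEGs at day 14, members lower at day 14 than at day 7, sex and the sex by day 7 interaction. Members whose sign turned with total count scaling, with a call under at least one of the settings, had these log2 fold changes at day 7: Canx 0.45, Dnajb9 0.39, Dnajc1 0.42, Dnajc3 0.35, Hyou1 0.45, Creld2 0.46, Herpud1 0.055, Sel1l 0.033, Edem1 0.060, Edem2 0.17, Edem3 0.37, Xbp1 0.33, Atf6 0.15, Ern1 0.19, Eif2ak3 0.27, Os9 0.36, Sil1 0.33, Wfs1 0.30, Erlec1 0.075, Ganab 0.44, Prkcsh 0.34. At day 14 they were Canx 0.21, Dnajc1 0.19, Edem3 0.16. These turns came with the shift of the median of all genes by 0.45 at day 7. No paired analysis was possible because each mouse has its own number and gave tissue at 1 time point. Intervals and p-values cover the spread between mice. For members with a wide spread, such as Hspa5 (95% interval -0.29 to 0.49 at day 7), the values are compatible with any change within the interval.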
